A study of Mus musculus with 6 samples.

Results

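The 78 genes described here encode proteins of the mitochondrial ribosome, measured in the inguinal white fat depot (iWAT), which lies under the skin of the groin. They are the rows of the deposited table whose symbol is Mrpl or Mrps followed by digits and an optional letter, without a hyphen, and whose mean over the 6 libraries was at least 1 FPKM (counts scaled by exon length and library total). They make up 78 of the 56691 rows, with 49 genes of the large subunit (Mrpl) and 29 of the small subunit (Mrps). All 78 symbols that matched the pattern passed the minimum, so no member was left out for a low value. The lowest mean was 1.24 FPKM for Mrpl53, and no gene lay just under the minimum. The choice used the mean level only and no difference between groups.

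The study compared 3 single-housed with 3 group-housed adult male C57BL/6J mice and, by its title, asks how isolation bears on glucose through sympathetic input to this depot. The mice entered at 8 weeks of age and were kept for 8 weeks at 1 mouse per cage (single housing) or at 4 to 6 mice per cage (group housing). No genotype, drug or other treatment is named for either group, and each mouse gave 1 library of bulk tissue RNA. The sources used here do not say whether the group-housed mice shared a cage or litter.

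Mitochondria make a small set of respiratory-chain subunits on their own ribosomes. The RNA of these ribosomes is read from the mitochondrial chromosome, while all of their proteins are encoded in the nucleus, made in the cytosol and imported. The small subunit decodes the message and the large subunit joins the amino acids. Part of the proteins descend from bacterial ribosomal proteins and part are found in mitochondria only. In fat, adipocytes that burn fuel for heat are rich in mitochondria and depend on this machinery for their respiratory chain.

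Libraries held between 21410779 and 35318376 counts, of which the members took 0.263% to 0.279% in single housing and 0.249% to 0.313% in group housing. The fewest counts for any member in a library were 16, for Mrpl53 in single-housed mouse 2. Adipocyte markers (6 genes) summed to between 3431 and 4780 FPKM in single housing and between 2736 and 4767 FPKM in group housing so that the defining genes of fat were present in every library, and the 3 epididymal fat markers summed to at most 0.070 FPKM. Skeletal muscle markers (11 genes, none of them at 0 in any library) summed to 3422 FPKM in single-housed mouse 3 and 1196 FPKM in group-housed mouse 2, against 21.2 and 17.8 FPKM in single-housed mice 1 and 2 and 271 and 16.7 FPKM in group-housed mice 1 and 3. B and plasma cell markers (6 genes) ranged from 188 to 468 FPKM in single housing and from 338 to 572 FPKM in group housing, with the lowest sum in single-housed mouse 3. Thermogenic adipocyte markers (5 genes) summed to 819, 632 and 963 FPKM in single-housed mice 1, 2 and 3, against 382, 357 and 278 FPKM in group-housed mice 1, 2 and 3, with no overlap. Endothelial markers (4 genes) summed to 128 to 153 FPKM in single housing and 109 to 121 FPKM in group housing, also with no overlap.

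The proteins' transcripts differed widely in level. Mean FPKM over the 6 libraries ran from 1.24 for Mrpl53 to 73.8 for Mrps21, the counterpart of the bacterial small-subunit protein S21, with a median of 12.6 FPKM over the members and 4.12 FPKM over the 18085 genes tested. The large subunit had a median of 13.9 FPKM and the small subunit 11.3 FPKM. In the large subunit the highest means were those of Mrpl12 (50.5 FPKM), a protein of the stalk that recruits translation factors, Mrpl24 (42.6 FPKM) and Mrpl18 (40.4 FPKM). In the small subunit Mrps18c (33.2 FPKM) and Mrps15 (31.4 FPKM) followed Mrps21. The lowest were Mrpl57 (3.96 FPKM) after Mrpl53 in the large subunit, and Mrps25 (3.67 FPKM) and Mrps35 (4.43 FPKM) in the small subunit. Summed exon length, by which FPKM are divided, ran from 607 to 8631 bases over the members, and across the 78 genes it ran against FPKM with a Spearman rho of -0.67, compared with -0.02 across 13877 genes with a mean of at least 1 FPKM. Among the members, genes of greater annotated length thus tended to have lower FPKM. The part of length in the order of levels was not tested, and genes are not independent replicates.

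**Figure D1:**
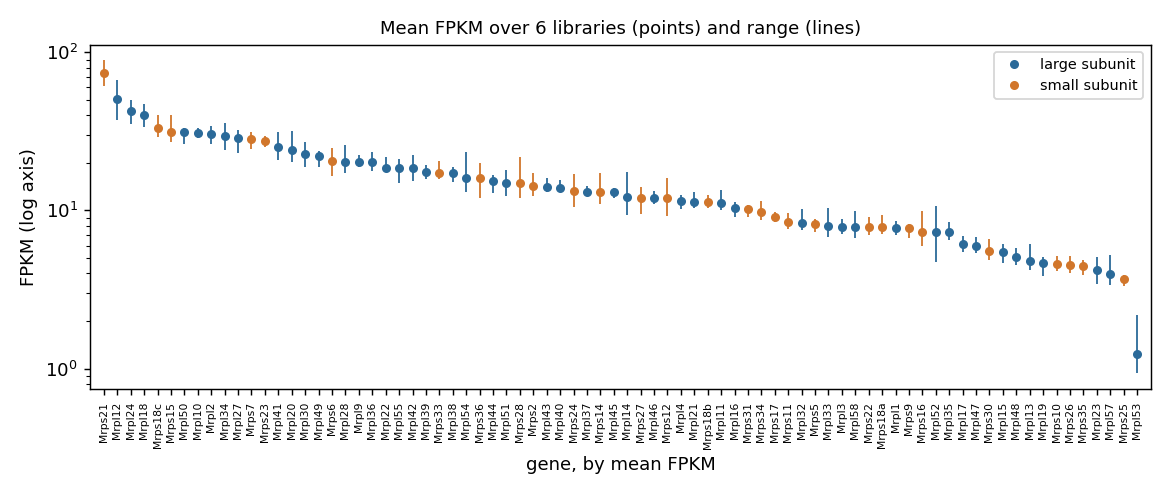
Mean FPKM of each of the 78 genes over the 6 libraries (points, log axis) with the lowest and highest library (vertical lines), ordered by mean and coloured by subunit. The genes run from Mrps21 at 73.8 to Mrpl53 at 1.24 FPKM, and the genes of both subunits are spread over the range.

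Neither subunit differed between single and group housing by more than the spread between mice. Large-subunit genes together summed to 790, 759 and 794 FPKM in single-housed mice 1, 2 and 3, against 917, 802 and 704 FPKM in group-housed mice 1, 2 and 3. The 3 single-housed values lay inside the range of the group-housed ones. Means were 781 ± 19.3 FPKM in single housing and 807 ± 106 FPKM in group housing (SD, n = 3 each). Small-subunit genes summed to 443, 405 and 441 FPKM in the single-housed mice, against 502, 448 and 385 FPKM in the group-housed mice, again with the single-housed values inside the group-housed range. The ratio of the large to the small sum was 1.78, 1.87 and 1.80 in single housing and 1.83, 1.79 and 1.83 in group housing. It averaged 1.82 ± 0.046 in single housing and 1.81 ± 0.022 in group housing (SD, n = 3 each). The difference between the mean ratios was smaller than the SD within either group.

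**Figure D2:**
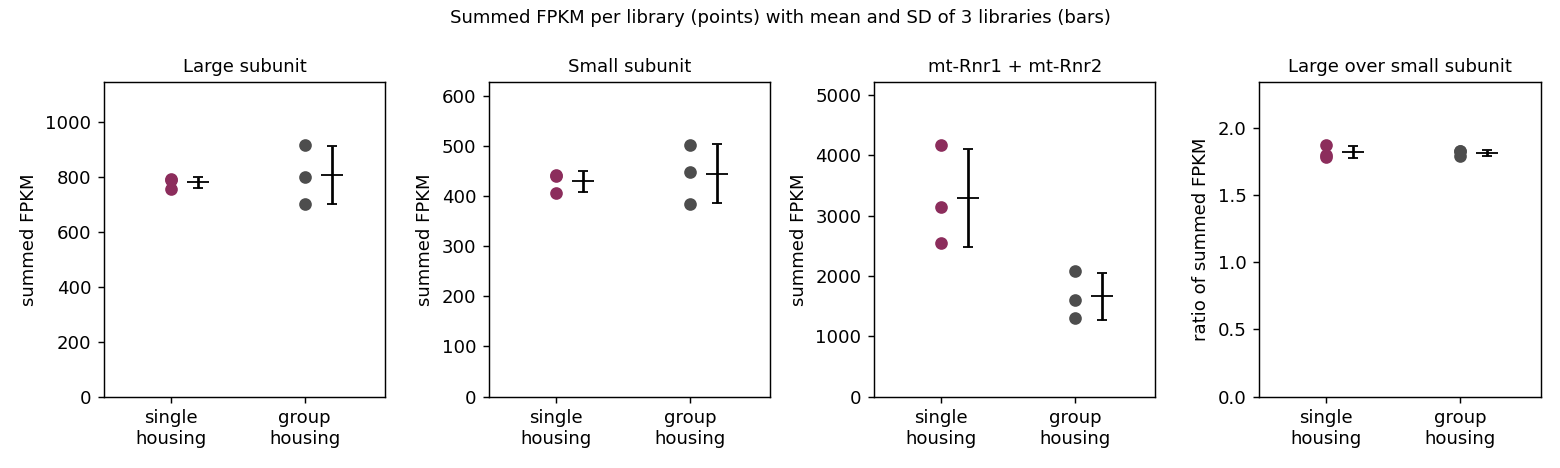
Summed FPKM of the large-subunit genes, the small-subunit genes and the mitochondrial ribosomal RNAs mt-Rnr1 and mt-Rnr2, and the ratio of the large to the small sum, per library (points) with mean and SD of 3 libraries (bars), single housing left of group housing. The protein sums overlap between the groups (781 against 807 FPKM for the large subunit), the ribosomal RNA sums do not, and the ratio of subunits stays between 1.78 and 1.87.

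Gene by gene, 0 of the 78 passed edgeR's quasi-likelihood test at a Benjamini-Hochberg adjusted p below 0.05 over 18085 genes, where 0% of all genes passed. DESeq2 also called 0 members, with 1.15% of all genes called. At an unadjusted p below 0.05, edgeR had 0 members higher (3.49% of all genes) and 1 lower (3.47% of all genes; 6.96% in either direction), namely Mrpl52. The median log2 fold change, single over group housing, was 0.03 for the large subunit and 0.03 for the small subunit, beside -0.01 over all genes tested. Of the large-subunit genes 26 lay above and 23 below 0, and of the small-subunit genes 20 above and 9 below, beside 48.1% of all genes above 0. These directions depended on scaling, since on the deposited FPKM scale (limma on log2(FPKM + 1)) 26 of the 78 lay above 0 in place of 46, while the median over all genes there was -0.06.

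Taken gene by gene, the intervals bounded the change at less than 2-fold for most members. The 95% interval of the fold change lay within 2-fold in both directions for 76 of the 78 genes (67.4% of all genes tested, 78.6% of those with a mean of at least 1 FPKM). It lay within 1.5-fold for 60 of the 78 (36.2% of all genes, 46.3% of those with a mean of at least 1 FPKM). All 29 small-subunit genes were in the first class. The exceptions were Mrpl52 and the weakly expressed Mrpl53, whose intervals reached log2 fold changes of -1.08 and -1.30. No interval reached a 2-fold rise, the highest upper bound being 0.87 on the log2 scale, for Mrps36. Each interval is for 1 gene under the main scaling and rests on 3 mice a group.

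**Figure D3:**
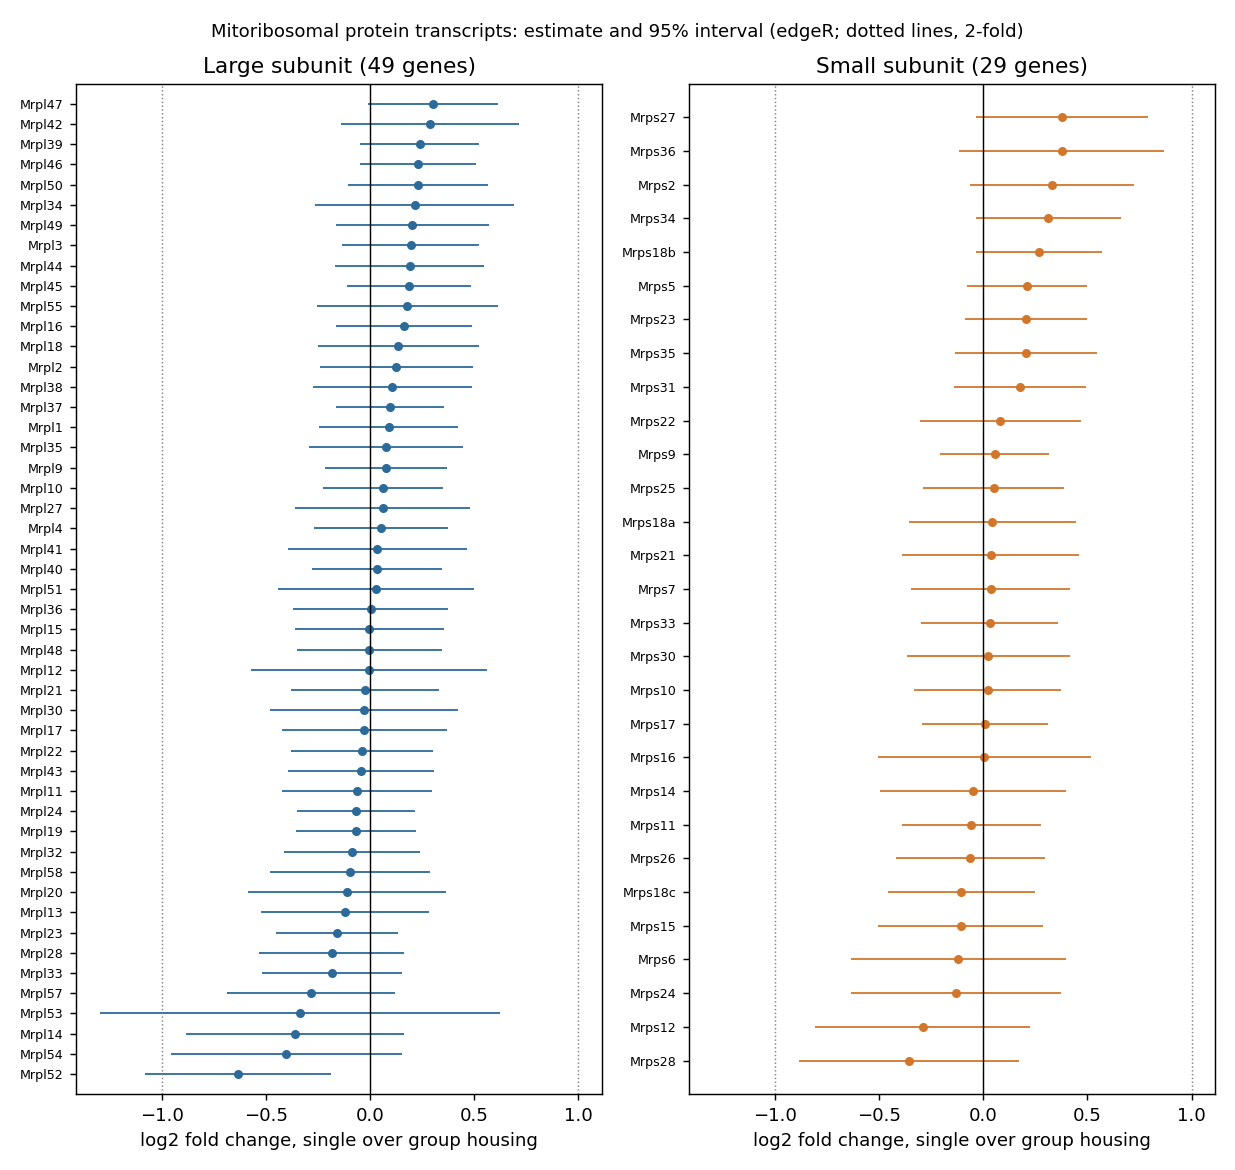
Log2 fold change, single over group housing, of each gene (points, edgeR) with its 95% interval (horizontal lines), large subunit left and small subunit right, ordered by size. All intervals but that of Mrpl52 include 0, and those of Mrpl52 and Mrpl53 cross the dotted 2-fold line on the lower side.

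Mrpl52, a large-subunit protein with no bacterial counterpart (ENSMUSG00000010406; mm39 chromosome 14, 54664366 to 54667213, plus strand), had the largest difference. It stood at 6.00, 5.85 and 4.69 FPKM in single-housed mice 1, 2 and 3, against 10.6, 8.61 and 7.91 FPKM in group-housed mice 1, 2 and 3. Every single-housed mouse was below every group-housed mouse. Its log2 fold change was -0.63 ± 0.19 (SE), with an unadjusted p of 0.0124 but an adjusted p of 0.588 in edgeR and 0.148 in DESeq2, so it did not pass. Its direction held in every alternative fit tried, where it remained above the threshold.

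Other large-subunit genes with negative estimates were Mrpl54, Mrpl14, Mrpl53, Mrpl57 and Mrpl33, and none passed. Mrpl54 (chromosome 10, 81100547 to 81102768) stood at 13.04, 13.93 and 13.30 FPKM in single housing, against 23.4, 19.4 and 13.5 FPKM in group housing, with a log2 fold change of -0.40 ± 0.24 (SE). Its groups overlapped, since group-housed mouse 3 lay within the single-housed range. Mrpl14, the counterpart of bacterial L14, stood at 10.95, 9.35 and 10.7 FPKM in single housing, against 17.6, 13.7 and 11.2 FPKM in group housing. Mrpl57 (3.45 ± 0.119 FPKM in single housing and 4.46 ± 0.660 FPKM in group housing) and Mrpl33 (7.23 ± 0.395 FPKM in single housing and 8.71 ± 1.43 FPKM in group housing; SD, n = 3 each) had log2 fold changes of -0.28 and -0.18. Mrpl53 had between 16 and 38 counts per library, and its standard error of 0.41 was the widest of the members. In the small subunit the lowest estimates were those of Mrps28, Mrps12, Mrps24, Mrps6, Mrps15 and Mrps18c. Mrps28 (chromosome 3, 8867206 to 8988978) stood at 11.97, 13.36 and 12.52 FPKM in single housing, against 21.7, 16.6 and 13.1 FPKM in group housing, a log2 fold change of -0.36 ± 0.22 (SE). Mrps12, whose bacterial counterpart sits at the decoding centre, averaged 10.3 ± 1.07 FPKM in single housing and 13.5 ± 2.57 FPKM in group housing (SD, n = 3 each). In all of Mrpl54, Mrpl14, Mrpl53, Mrps28 and Mrps12, group-housed mouse 1 had the highest level of the 6 mice.

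On the positive side the large-subunit genes were Mrpl47, Mrpl42, Mrpl39, Mrpl46, Mrpl50 and Mrpl34, again none past the threshold. Mrpl47, the counterpart of bacterial L29 at the exit of the peptide tunnel (chromosome 3, 32779546 to 32791754), stood at 6.36, 6.16 and 6.78 FPKM in single housing, against 5.78, 5.55 and 5.36 FPKM in group housing. The groups did not overlap, and the log2 fold change was 0.30 ± 0.13 (SE; edgeR adjusted p = 0.729). Mrpl46 (chromosome 7, 78424984 to 78433279) stood at 12.55, 13.27 and 11.92 FPKM in single housing, against 11.99, 10.99 and 11.21 FPKM in group housing. Its groups met on the FPKM scale and were apart only after normalization for library composition, with a log2 fold change of 0.23 ± 0.12 (SE). Mrpl39, a protein related in sequence to threonyl-tRNA synthetase, averaged 18.5 ± 0.81 FPKM in single housing and 16.7 ± 0.71 FPKM in group housing, and Mrpl42 19.7 ± 2.5 and 17.3 ± 2.11 FPKM in the same order (SD, n = 3 each). Mrpl50 and Mrpl34 had log2 fold changes of 0.23 and 0.21. Without single-housed mouse 3 the estimates were 0.03 for Mrpl34, 0.12 for Mrpl42 and 0.20 for Mrpl47, and without group-housed mouse 3 they were 0.08 for Mrpl34, 0.18 for Mrpl42 and 0.12 for Mrpl50.

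In the small subunit the positive estimates were led by Mrps27, Mrps36, Mrps2, Mrps34, Mrps18b and Mrps5. Mrps27, a pentatricopeptide-repeat protein of the mitochondrial small subunit (ENSMUSG00000041632; chromosome 13, 99481294 to 99552070, plus strand), stood at 13.5, 12.1 and 14.1 FPKM in single housing, against 9.49, 12.5 and 10.5 FPKM in group housing. Group-housed mouse 2 lay within the single-housed range, and the log2 fold change was 0.38 ± 0.17 (SE; edgeR adjusted p = 0.747). Mrps34, a protein without a bacterial counterpart (chromosome 17, 25114090 to 25116476), stood at 10.2, 9.98 and 11.5 FPKM in single housing, against 9.32, 9.09 and 8.75 FPKM in group housing, with no overlap. Its log2 fold change was 0.31 ± 0.15 (SE; edgeR adjusted p = 0.751). Mrps36 stood at 17.8, 15.0 and 19.8 FPKM in single housing, against 15.4, 15.8 and 12.01 FPKM in group housing. Its product is now assigned to the 2-oxoglutarate dehydrogenase complex of the citric acid cycle and not to the ribosome, although the symbol matches the rule. Mrps2 and Mrps5, counterparts of bacterial S2 and S5, had log2 fold changes of 0.33 and 0.21. Mrps27, Mrps36, Mrps2, Mrps34, Mrpl47, Mrpl42 and Mrpl34 had their highest FPKM in single-housed mouse 3, the library with the most muscle transcripts. The part of muscle in these differences was not tested. Estimates from the fit with the skeletal muscle markers as covariate stayed close to those without a covariate. For Mrps27, Mrps36, Mrps2 and Mrps34 they were 0.38, 0.38, 0.32 and 0.30, against 0.38, 0.38, 0.33 and 0.31 without it. For Mrpl47, Mrpl42 and Mrpl34 they were 0.30, 0.28 and 0.21, against 0.30, 0.29 and 0.21. Without single-housed mouse 3 the estimates were 0.27 for Mrps27, 0.18 for Mrps34, 0.22 for Mrps36 and 0.18 for Mrps2. Without that library and group-housed mouse 2, 1 member was higher at an unadjusted p below 0.05 (Mrps27; 6.08% of all genes) and 1 lower (Mrpl52; 5.96% of all genes), and 0 passed after adjustment.

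**Figure D4:**
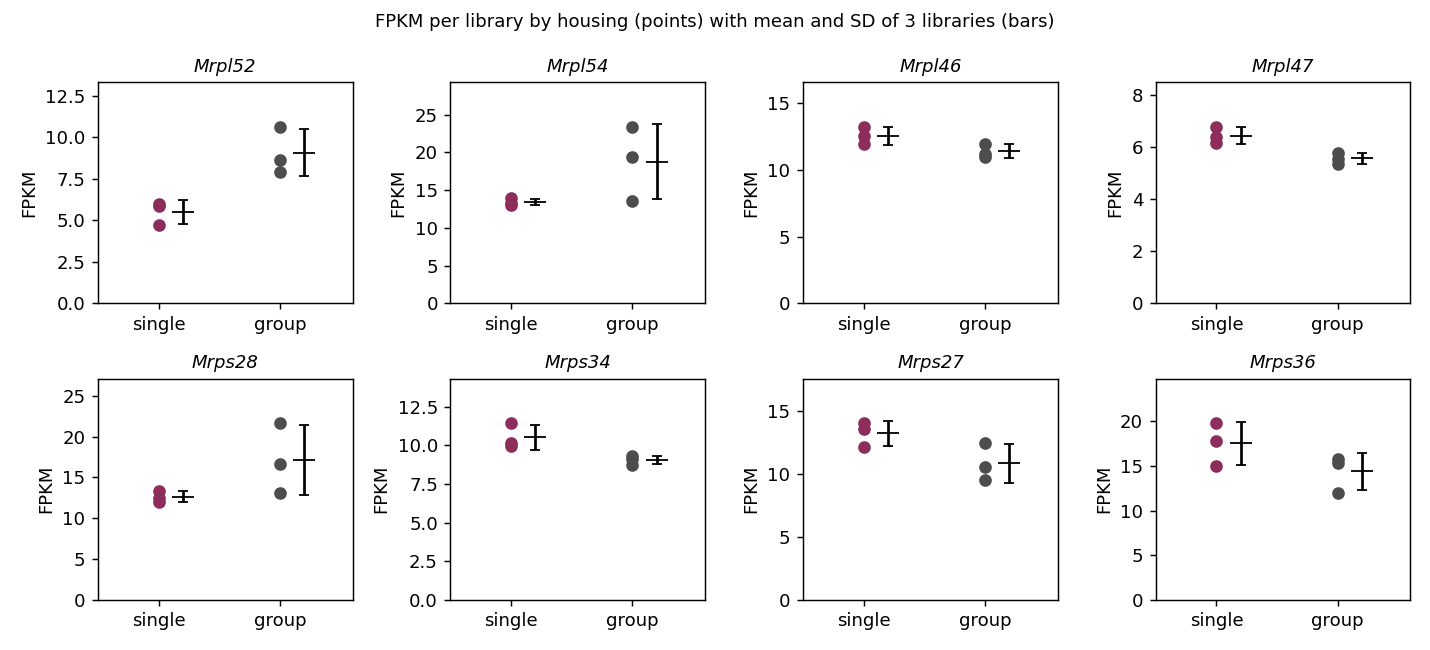
FPKM of 8 genes per library (points) with mean and SD of 3 libraries (bars), single housing left of group housing, with each axis starting at 0. Mrpl52 lies lower in every single-housed mouse (5.51 against 9.05 FPKM on average), Mrpl47 and Mrps34 lie higher in every one, and the groups of the other 5 genes overlap.

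After normalization for composition, the groups did not overlap for 3 members in the higher direction (Mrpl46, Mrpl47 and Mrps34; 6.61% of all genes) and for 1 in the lower direction (Mrpl52; 6.78% of all genes). On the deposited FPKM they did not overlap for 6 higher (4.86% of all genes) and 6 lower members (9.01% of all genes). With fewer libraries more genes of any kind had groups apart. Without group-housed mouse 3 this held for 23 members (21.1% of all genes), without single-housed mouse 2 for 16 (19.8% of all genes), without group-housed mouse 2 for 13 (34.8% of all genes), and without group-housed mouse 2 and single-housed mouse 3 together for 14 (43.6% of all genes).

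The 3 genes that descend from bacterial S18 had estimates of either sign. Mrps18c averaged 31.0 ± 2.98 FPKM in single housing and 35.4 ± 4.40 FPKM in group housing (log2 fold change -0.11 ± 0.15, SE). Mrps18b averaged 11.98 ± 0.66 FPKM in single housing and 10.6 ± 0.19 FPKM in group housing (0.27 ± 0.13), and Mrps18a 7.70 ± 0.15 FPKM in single housing and 7.91 ± 1.21 FPKM in group housing (0.04 ± 0.17; SD of levels with n = 3 each). None passed, and differences between the paralogs were not tested. The proteins of Mrps18a and Mrps30 carry small-subunit names but sit in the large subunit of the mammalian ribosome. Mrps30 stood at 5.43 ± 0.40 FPKM in single housing and 5.68 ± 0.86 FPKM in group housing (SD, n = 3 each). Counting both genes with the large subunit left its median log2 fold change at 0.03 and that of the small subunit at 0.03.

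In the large subunit the median log2 fold change was -0.005 over 29 genes of bacterial descent (13 above 0) and 0.03 over 19 genes specific to mitochondria (12 above 0). Differences between these classes were not tested. In the small subunit the 17 genes of bacterial descent had a median of 0.01 (10 above 0), and the 10 specific to mitochondria had 0.13 (9 above 0, with Mrps26 at -0.06 as the exception). Not every member was placed in a class. Mrps28 (-0.36), the lowest estimate of the small subunit, and Mrps36 (0.38) were in neither. Mrps18a and Mrps30 were counted here with the small subunit by symbol, although their proteins sit in the large one. None of these genes but Mrpl52 reached an unadjusted p of 0.05. The 3 proteins of the stalk, Mrpl10, Mrpl11 and Mrpl12, had log2 fold changes of 0.06, -0.06 and -0.005. Mrpl12 stood at 49.7, 44.9 and 52.2 FPKM in single housing, against 66.9, 52.3 and 37.2 FPKM in group housing, so that group housing held both the highest and the lowest mouse.

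Members rose and fell together from mouse to mouse, across housing. The mean pairwise Pearson correlation of log2 CPM over the 6 libraries was 0.63 among the 78 members, 0.63 within the large subunit, 0.65 within the small subunit and 0.64 between the subunits, beside 0.003 among all genes tested. The 6 points share library composition, so this is a description. Of the 78, 73 had a correlation above 0.5 with the mean profile of the members, and the lowest were Mrpl24 (0.03) and Mrpl52 (0.17). After normalization for composition, 38 members had their highest level in single-housed mouse 3 and 31 in group-housed mouse 1, while 67 had their lowest in group-housed mouse 3. On the deposited FPKM, without that normalization, 13 were highest in single-housed mouse 3 and 51 in group-housed mouse 1, and 44 were lowest in group-housed mouse 3. For the 6 adipocyte markers the mean log2 CPM (counts scaled to the library total and then normalized for composition) was likewise lowest in group-housed mouse 3 (9.63). It was highest in single-housed mouse 3 (10.8), with 10.1 and 10.2 in single-housed mice 1 and 2 and 10.1 and 10.5 in group-housed mice 1 and 2. The part of adipocyte content or muscle in the shared profile was not tested. In bulk tissue, fewer cells of a type and less RNA per cell cannot be told apart.

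**Figure D5:**
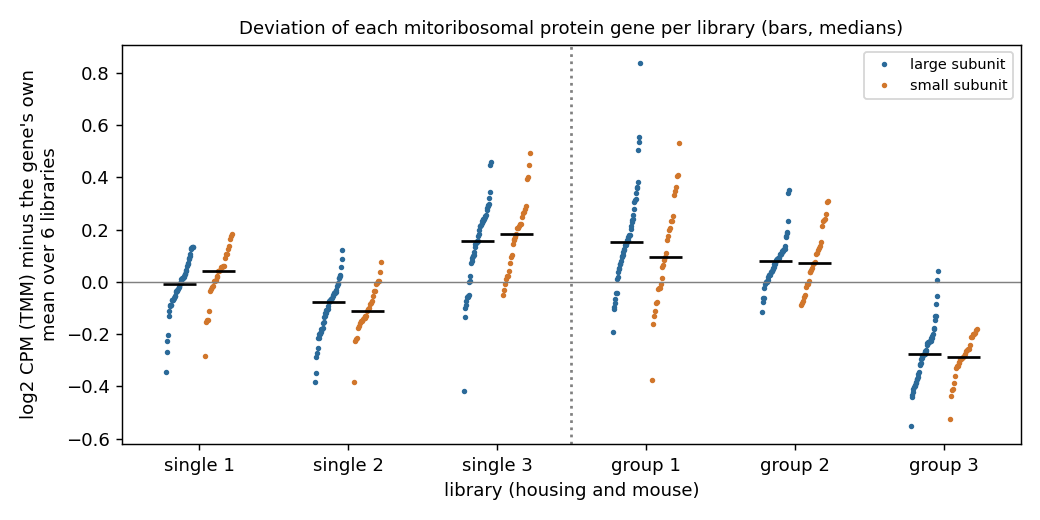
Log2 CPM of each gene minus its own mean over the 6 libraries (points), by library and subunit, with the median of each subunit (bars), single housing left of group housing. Both subunits shift together in each library, up in single-housed mouse 3 and group-housed mouse 1 and down in group-housed mouse 3, where 67 of 78 genes have their lowest level on this scale (44 on the deposited FPKM).

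The direction of the members' estimates changed with the mice included. Without group-housed mouse 3, 55 of the 78 lay below 0 and 5 were lower at an unadjusted p below 0.05 (Mrpl14, Mrpl28, Mrpl52, Mrpl54 and Mrps28; 2.73% of all genes were lower there and 1.7% higher). Without group-housed mouse 1, 64 lay above 0. With the mean level of the muscle markers as a covariate, 13 members were higher (9.77% of all genes) and 1 lower (11.6% of all genes) at an unadjusted p below 0.05, the higher ones including Mrps27, Mrps2, Mrps34, Mrpl47 and Mrpl46. Adjusted over all genes, 0 members passed there, with a smallest adjusted p of 0.0808, while edgeR called 830 genes of the whole table. With the B and plasma cell markers as covariate, chosen after seeing the data, 2 members were higher (6.23% of all genes) and 1 lower (7.76% of all genes).

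The ribosome's own RNA was higher in every single-housed than in every group-housed mouse, while the sums for its proteins overlapped. Thermogenic adipocyte and endothelial markers were apart in the same direction, and their part in this result was not tested. Summed over mt-Rnr1 and mt-Rnr2, the RNAs of the small and the large subunit, mitochondrial ribosomal RNA stood at 3148, 2553 and 4169 FPKM in single-housed mice 1, 2 and 3, against 1299, 2079 and 1603 FPKM in group-housed mice 1, 2 and 3. Set against the summed FPKM of the 78 protein genes, the ratio was 2.55, 2.19 and 3.38 in single housing and 0.92, 1.66 and 1.47 in group housing. The fold difference was 2.31 for mt-Rnr2 (unadjusted p = 0.00598, adjusted p = 0.482 in edgeR and 0.0131 in DESeq2) and 1.97 for mt-Rnr1 (adjusted p = 0.588 in edgeR and 0.0805 in DESeq2). On the log2 scale the 95% intervals ran from 0.47 to 1.94 for mt-Rnr2 and from 0.28 to 1.68 for mt-Rnr1. With the muscle markers as covariate both passed edgeR's adjusted threshold (adjusted p = 0.0204 for mt-Rnr2 and 0.0248 for mt-Rnr1; 4.59% of all genes called), and so they did with the B and plasma cell markers (0.0256 for mt-Rnr2 and 0.0436 for mt-Rnr1; 1.75% of all genes called). Whether RNA and protein genes differed from each other was not tested. The 13 messages that these ribosomes translate each had a positive estimate (median 0.72 on the log2 scale; 48.1% of all genes above 0). Of these 13, 9 were higher at an unadjusted p below 0.05 in edgeR (3.49% of all genes). Groups were apart in the higher direction for 11 (6.61% of all genes). edgeR called 0 of them (0% of all genes) and DESeq2 2 (1.15% of all genes). edgeR called 8 with the muscle covariate (4.59% of all genes) and 1 with the B and plasma cell covariate (1.75% of all genes). How ribosomal RNA was removed from the libraries is not stated in the labels, and it bears on the level of both ribosomal RNAs.

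Of the cytosolic ribosomal protein genes, 79 of 81 had negative estimates (median -0.33 on the log2 scale), 0 passing after adjustment in edgeR or DESeq2 and 10 lower at an unadjusted p below 0.05 (3.47% of all genes). Groups were apart in the lower direction for 21 of the 81 (6.78% of all genes). Their median lay between -0.42 and -0.18 under the alternatives. Side by side, the medians were 0.03 for mitochondrial and -0.33 for cytosolic ribosomal protein genes. Summed cytosolic FPKM were 12.8, 13.2 and 8.34 times the summed mitochondrial FPKM in single-housed mice 1, 2 and 3, against 15.1, 11.5 and 17.0 times in group-housed mice 1, 2 and 3. These ranges overlapped, and the lowest ratio was in single-housed mouse 3, where B and plasma cell markers were also lowest.

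Genes that work with the mitochondrial ribosome were described in the same way, and 0 of them passed edgeR's adjusted threshold without a covariate. With the muscle covariate, where edgeR called 4.59% of all genes, 5 passed. Of 17 translation factors these were Lrpprc (adjusted p = 0.0294), Gfm1 (0.0341) and Taco1 (0.0446), all higher. Of 9 regulators they were Esrra (0.0335), which was higher, and Myc (0.0280), which was lower (log2 fold change -0.58). There 0 passed among 28 assembly factors and modifying enzymes, 22 synthetases, 10 genes of mitochondrial DNA transcription and maintenance, and 5 ribosomal proteins with other symbols. Of 5 ribosomal proteins with other symbols, 4 lay below 0 (Aurkaip1, Chchd1, Gadd45gip1 and Dap3), and Ptcd3, a pentatricopeptide-repeat protein, stood at 13.8, 13.2 and 13.3 FPKM in single housing, against 12.38, 11.03 and 11.48 FPKM in group housing (log2 fold change 0.30 ± 0.11, SE; adjusted p = 0.672). Assembly factors and enzymes that modify the ribosomal RNA (28 genes) had a median of 0.07, with 18 above 0 and 0 at an unadjusted p below 0.05. The smallest p values there were those of Noa1 (log2 fold change 0.24) and Mrm3 (0.40).

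Translation factors of mitochondria (17 genes) had a median log2 fold change of 0.17. Of them 15 lay above 0 and 3 were higher at an unadjusted p below 0.05 (3.49% of all genes). Lrpprc, which stabilizes mitochondrial messages, stood at 10.9, 11.2 and 11.7 FPKM in single housing, against 8.88, 8.86 and 9.55 FPKM in group housing, with no overlap (log2 fold change 0.40 ± 0.12, SE; adjusted p = 0.577). Taco1, an activator of translation of a cytochrome oxidase subunit, stood at 14.6, 15.8 and 16.2 FPKM in single housing, against 11.6, 12.5 and 12.3 FPKM in group housing, also with no overlap (0.45 ± 0.14; adjusted p = 0.588). The elongation factor Gfm1 averaged 21.1 ± 1.92 FPKM in single housing and 17.0 ± 0.78 FPKM in group housing (SD, n = 3 each).

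Mitochondrial aminoacyl-tRNA synthetases and related genes (22 tested) had a median of 0.11, with 17 above 0, and the smallest p values went in opposite directions. Lars2 averaged 21.8 ± 4.24 FPKM in single housing and 33.3 ± 6.74 FPKM in group housing (log2 fold change -0.53), and Iars2 14.9 ± 0.44 and 12.3 ± 1.18 FPKM in the same order (0.36; SD, n = 3 each). Genes of mitochondrial DNA transcription and maintenance (10) had a median of 0.18, led by Tfb2m, a factor that starts transcription (0.33, adjusted p = 0.635), and Mgme1 (0.33), while Tfam, which packages the mitochondrial chromosome, stood at 12.4 ± 1.91 FPKM in single housing and 13.3 ± 1.58 FPKM in group housing (log2 fold change -0.01). The 9 regulators of nuclear mitochondrial genes had a median of 0.02, with 5 above and 4 below 0. Of them 3 were higher (3.49% of all genes) and 0 lower (3.47% of all genes) at an unadjusted p below 0.05 in edgeR. None passed without a covariate. The lowest estimate was that of Myc (log2 fold change -0.54). Esrra, an orphan nuclear receptor, averaged 13.2 ± 0.70 FPKM in single housing and 10.4 ± 1.0 FPKM in group housing (log2 fold change 0.44). The coactivator Ppargc1a averaged 3.40 ± 0.30 FPKM in single housing and 2.63 ± 0.42 FPKM in group housing (0.46), and Gabpa, an ETS-family factor, had 0.25. Of 5 genes that follow mitochondrial mass, all lay above 0, with Cs (citrate synthase) at 122 ± 13 FPKM in single housing and 95.4 ± 9.13 FPKM in group housing (0.44, adjusted p = 0.724) and Timm23, a subunit of the import channel, at 0.25. The median of these 5 was 0.25, and 0.05 without single-housed mouse 3.

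Promoters of the members were searched for the letters of 3 known regulators, with no test of the shares. RefSeq windows of build GRCm38.p6, from 250 bases before to 50 after the start, were at hand for 69 of the 78 genes, and both strands were read. CCGGAAG, the core bound by ETS factors such as Gabpa, was in the windows of 26 of 69 members (37.7%), beside 19.9% of 9794 genes with a mean of at least 1 FPKM and 9.93% of all 27025 genes with a window. GCGCA and GCGC with 1 base between them, the letters of nuclear respiratory factor NRF1, were in 13 members (18.8%, beside 11.3% and 5.19%), with 10 of 43 in the large subunit (23.3%) and 3 of 26 in the small subunit (11.5%). AAGATGGC, the letters of YY1, was in 12 members (17.4%, beside 5.24% and 3.19%). A match is a description and no shown binding site. The 43 members with any of these motifs had a median log2 fold change of 0.03, and the 26 with none had 0.04.

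The stretches before the start are shown for the members with the lowest and the highest estimate and for Mrpl12, the most abundant gene of the large subunit, with motif matches in capitals. Mrpl52 (GRCm38.p6, chr14:54426659-54426908, plus strand) and Mrps27 (chr13:99344536-99344785, plus strand), which differed in opposite directions, each held 1 ETS core. The window of Mrps27 also had a YY1 match, which was not within the stretch shown. Mrpl12 (chr11:120484387-120484636, plus strand) held 1 NRF1 match.
Mrpl52: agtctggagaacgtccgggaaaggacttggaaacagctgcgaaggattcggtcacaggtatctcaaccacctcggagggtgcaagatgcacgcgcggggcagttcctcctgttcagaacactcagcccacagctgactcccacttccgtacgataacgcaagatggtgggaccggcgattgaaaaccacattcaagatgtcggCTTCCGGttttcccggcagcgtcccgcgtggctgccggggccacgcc
Mrps27: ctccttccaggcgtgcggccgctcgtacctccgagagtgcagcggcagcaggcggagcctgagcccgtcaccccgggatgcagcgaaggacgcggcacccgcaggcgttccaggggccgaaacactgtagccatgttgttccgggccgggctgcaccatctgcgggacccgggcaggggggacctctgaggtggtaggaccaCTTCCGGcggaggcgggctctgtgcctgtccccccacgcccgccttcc
Mrpl12: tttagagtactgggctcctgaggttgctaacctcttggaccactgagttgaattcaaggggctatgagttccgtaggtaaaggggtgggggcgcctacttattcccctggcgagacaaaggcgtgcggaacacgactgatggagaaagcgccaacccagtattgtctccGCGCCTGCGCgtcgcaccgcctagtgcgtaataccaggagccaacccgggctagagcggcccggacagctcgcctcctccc

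Several members overlap another gene, and their values are uncertain, since the labels do not say whether counting took the strand into account. Of the 78, 22 overlap a row with at least 10% of their own counts, 3 of them on the same strand (Mrpl53 with Gm42688, Mrps6 with Slc5a3 and Mrps24 with Urgcp). Among the genes described above, some overlap a gene on the opposite strand with more counts than their own. Mrpl47 overlaps Ndufb5 and Actl6a, Mrps34 overlaps Mapk8ip3, Mrpl18 overlaps Tcp1, Mrpl14 overlaps Tmem63b and Mrps25 overlaps Nr2c2 in this way. Mrpl46 and Mrps11, one of each subunit, overlap each other head to head on chromosome 7 and had log2 fold changes of 0.23 and -0.06. Among the 56 members without such an overlap, the median log2 fold change was 0.03 over 35 large-subunit genes and 0.03 over 21 small-subunit genes.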

How the data were processed

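Bulk RNA-seq of inguinal fat from 3 single-housed and 3 group-housed mice was analysed from the processed table. Per the labels' protocols, RNA was extracted with TRIzol and libraries were made by the protocol of Genewiz. Build mm39 stands in the submitters' processing notes. The labels name no aligner, counter, annotation or strand setting. The deposited count columns hold whole-number counts per gene, not normalized, per the file headers. The deposited FPKM columns equalled count over exon length and library total in 100% of values within 0.0051, so these columns hold no correction for composition. The deposited summed exon length of each gene is in bases. A further 24 columns name other tissues, match no sample here and were not used. The 2639 rows without a symbol stayed in the test.

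The count test was edgeR 4.0.16 under R 4.3.3 (filterByExpr, TMM, quasi-likelihood F test, two-sided, Benjamini-Hochberg over 18085 genes), checked on simulated counts. Standard errors are the absolute log2 fold change over the square root of F, and 95% intervals use the t quantile of the fit's degrees of freedom. Alternatives used DESeq2 1.42.0 and limma 3.58.1 on log2(FPKM + 1) or log2(FPKM + 0.1). Groups were compared for overlap on CPM with TMM factors unless FPKM is named. Named members are, per subunit, the 6 with the largest positive and the 6 with the largest negative estimate, the 3 highest and 2 lowest in FPKM, any with an unadjusted p below 0.05, the S18 paralogs and Mrps30. Of each other list the 2 genes of smallest p are named, and Ppargc1a, Tfam, mt-Rnr1 and mt-Rnr2 in any case. Mrpl10, Mrpl11, Mrps11, Mrps26, Mrpl28, Gfm1, Gabpa, Myc and the remaining ribosomal proteins with other symbols were named after their values were seen. Members and lists were chosen with earlier results of these data known, and the classes by descent, the cytosolic list and the motifs were added after the data were seen.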

Additional observations from a re-analysis of the deposited data

How the results depend on the processing

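No member passed the adjusted threshold under any of the 15 alternative fits, and both subunit medians and their difference moved by less than 1 SD between mice in every one, although the medians changed sign (large subunit -0.09 without group-housed mouse 3 to 0.10 without group-housed mouse 1, small subunit -0.07 to 0.14 for the same mice). Mrpl52 kept its negative sign in all of them. edgeR called 0 genes of the table in the main fit, 53 without a filter on low counts, 22 with group-housed mouse 2 and single-housed mouse 3 left out together, 830 with the muscle covariate and 316 with a B cell covariate (chosen after seeing the data), and DESeq2 called 207 (1259 at an unadjusted p below 0.05 in edgeR). Members at an unadjusted p below 0.05 in edgeR numbered 1 in the main fit (6.96% of all genes). They numbered 14 with the muscle covariate (9.77% of all genes higher, 11.6% lower) and 3 with the B cell covariate (6.23% higher, 7.76% lower). With both libraries left out there were 2 (6.08% of all genes higher, 5.96% lower). Leaving out each mouse in turn gave 1 to 5 (2 without single-housed mouse 2 or group-housed mouse 2). The 5 were without group-housed mouse 3 (1.7% of all genes higher, 2.73% lower), and the share was not counted for the other mice. Members with groups apart numbered 4 in the main scaling (13.4% of all genes) and 14 with both libraries left out (43.6%). On FPKM (chosen after seeing the data) they numbered 12 (4.86% of all genes higher, 9.01% lower). Leaving out each mouse in turn gave 5 to 23. The 23 were without group-housed mouse 3 (21.1% of all genes). There were 16 without single-housed mouse 2 (19.8%) and 13 without group-housed mouse 2 (34.8%). The share was not counted for the other mice. A covariate gives no value for the count of members with groups apart. Of 24 members named for their estimates, 4 changed sign as mice were left out in turn: Mrpl53 (-0.591 to 0.0882), Mrps15 (-0.240 to 0.0457) and Mrps24 (-0.329 to 0.0215), highest without group-housed mouse 1, and Mrps6 (-0.308 to 0.00888), highest without group-housed mouse 2. The cause was not tested. A minimum above 0 FPKM in place of 1 chose the same 78 genes. For same-numbered mice of the 2 groups, deviations from the group means had correlations of 0.12, -0.56 and -0.70. With 3 mice a group these values cannot show whether mice shared a cage, litter or batch. A replicate block left 0 genes and 0 members called, with medians of 0.03 and 0.04 for the large and small subunit.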
